A study of Homo sapiens with 15 samples.

Results

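The libraries of a factorial layout were compared: UKE-1 cells under TNF-α with no drug, with MCL, with ruxolitinib, and with MCL and ruxolitinib together. They are 12 of the 15 libraries of the series, 3 in each of the 4 groups, and were chosen by their labels. The quantity described is the departure from additivity, the log2 level with both drugs minus that with MCL minus that with ruxolitinib plus that with TNF-α alone. It was tested in the 16146 of 58735 genes that passed a filter on low counts. UKE-1 is a human leukaemia line derived from a patient with essential thrombocythaemia, and the series asks how micheliolide acts on STAT3 and STAT5 in myeloproliferative neoplasms. MCL is taken here as micheliolide from the title of the series. RNA was taken 3 h after treatment, and all 4 groups carried TNF-α, so the layout holds no drug effect in the absence of the cytokine. The remaining 3 libraries, untreated cells, entered the shared estimate of the spread and are given where a level without TNF-α helps. Neither doses nor the timing of TNF-α relative to the drugs is given in the sources used here, and no label calls the replicates independent cultures. A p-value therefore measures only how far these libraries scatter, and that scatter may be technical.

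Micheliolide is a guaianolide sesquiterpene lactone, a plant product whose reactive methylene group can bond to cysteines of proteins. Ruxolitinib is an ATP-competitive inhibitor of JAK1 and JAK2, the kinases that phosphorylate STAT transcription factors downstream of cytokine receptors. TNF-α acts through its receptors to activate NF-kB, which drives genes for adhesion molecules, cytokines and its own inhibitors. Cysteine-reactive compounds are known to release NRF2, the master factor of antioxidant genes, and can engage HSF1, the factor of the heat shock genes, and ATF4, the factor of the integrated stress response. On the log2 scale 2 drugs are additive when the fold change with both equals the product of the fold changes with each. A gene is called above the sum when its level with both drugs exceeded that product, and below the sum when it fell short of it. A gene above the sum has therefore not always risen, and a gene below it has not always fallen.

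Library totals of the 12 libraries ranged from 15476399 to 17869509 counts. In a principal component analysis of log2 CPM over the tested genes of all 15 libraries, the libraries with both drugs lay apart from all others along the first component, which held 38.6% of the variance. Of the 12 blood and myeloid marker genes examined, 11 were above 1 CPM (MPO was at 0.824 CPM), as were 5 of 5 megakaryocyte markers. None of 5 erythroid or 5 fibroblast and stromal markers reached 1 CPM. Some markers of other cell types did: 4 of 4 endothelial, 3 of 4 T cell (CD3D at 10 CPM), 2 of 4 B cell (CD79A at 23.6 and CD79B at 5.97 CPM) and 2 of 4 epithelial (KRT8 at 47 and KRT18 at 75.9 CPM). Of the defining markers EPCAM, CDH1 and MS4A1 had 0 counts. In these bulk samples fewer cells of a type and less RNA per cell cannot be told apart.

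The combination departed from additivity in 4033 genes (25% of those tested) by edgeR's quasi-likelihood test with Benjamini-Hochberg adjustment at 0.05. Of these 1962 genes (12.2%) lay above the sum and 2071 (12.8%) below it, or 2168 and 1889 when libraries were scaled by their totals, without TMM. Departures of more than 1 on the log2 scale were fewer, with 178 genes (1.1%) above and 301 (1.86%) below. The median over all tested genes was 0.01. Among the 28 gene lists described below, the share of tested members called ran from 19.4% for G2/M genes to 90.7% for NF-kB targets. These shares stand beside 25% of all tested genes and 29.9% of 12455 protein-coding genes. At a filter of 50 counts the genes above the sum by more than 1 numbered 98.

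The departure can be read as the MCL effect with ruxolitinib minus the MCL effect without it, a pair of contrasts that share no library. MCL without ruxolitinib changed 4199 genes (26%), 1757 higher (10.9%) and 2442 lower (15.1%). MCL given with ruxolitinib changed 8347 (51.7%), 4012 higher (24.8%) and 4335 lower (26.8%). Scaled by totals, the majority turned upwards in both settings: 2381 higher and 2054 lower without ruxolitinib, and 4719 higher and 3689 lower with it. Across the 16146 genes the MCL effects with and without ruxolitinib had a Pearson r of 0.653 and a Spearman rho of 0.586. These describe genes, which are not independent replicates. The SD of the MCL effect over genes was 0.444 without ruxolitinib and 0.724 with it, on the log2 scale. The effects of ruxolitinib were less alike, with r = 0.243 and rho = 0.257 between its effect without and with MCL, and SDs of 0.336 and 0.523. Ruxolitinib alone changed 2538 genes (15.7%), 832 higher (5.15%) and 1706 lower (10.6%), or 1181 and 1418 when scaled by totals. Ruxolitinib added to MCL changed 6723 (41.6%), 3170 higher (19.6%) and 3553 lower (22%), and scaled by totals the majority turned upwards, with 3764 higher and 2976 lower.

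The called genes can be sorted by the calls of each drug with and without the other. The departure is the difference of these effects, so the sorting is a description. Of the 1962 genes above the sum, 598 (30.5%) were raised by MCL in both settings, against 8.61% of all tested genes. Another 1122 (57.2%, against 15.9%) were raised by MCL with ruxolitinib but did not pass without it. In 62 others MCL lowered the gene without ruxolitinib and raised it with ruxolitinib, and in 111 a fall under MCL alone did not pass with ruxolitinib. Of the 2071 genes below the sum, 928 (44.8%, against 12.1% of all tested genes) fell with MCL in both settings and 967 (46.7%, against 14.5%) fell with MCL given with ruxolitinib but did not pass without it. In 42 a rise under MCL alone became a fall. Sorted by ruxolitinib, 1342 of the genes above the sum (68.4%, against 16.4%) were raised by it with MCL but did not pass without MCL, and 1293 of those below (62.4%, against 14.2%) were lowered likewise. Among the genes beyond 1 on the log2 scale, all 3 combination libraries were above all 9 others in 103 of the 178 above the sum. They were below all 9 others in 256 of the 301 below it. Over all 16146 tested genes they were above all 9 others in 2725 (16.9%) and below in 2904 (18%), and the same libraries enter the departure, so nothing is read from these counts. Additivity depends on the scale, so the sums were also formed on CPM, the counts scaled to a common library total. None of the 1962 genes above the sum took the opposite sign on CPM, and 40 of the 2071 below it did. Where both drugs alone moved a gene the same way, the product exceeds the CPM sum, so only a gene below the product could reverse. These counts therefore do not compare how firm the upward and downward calls are.

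**Figure D1:**
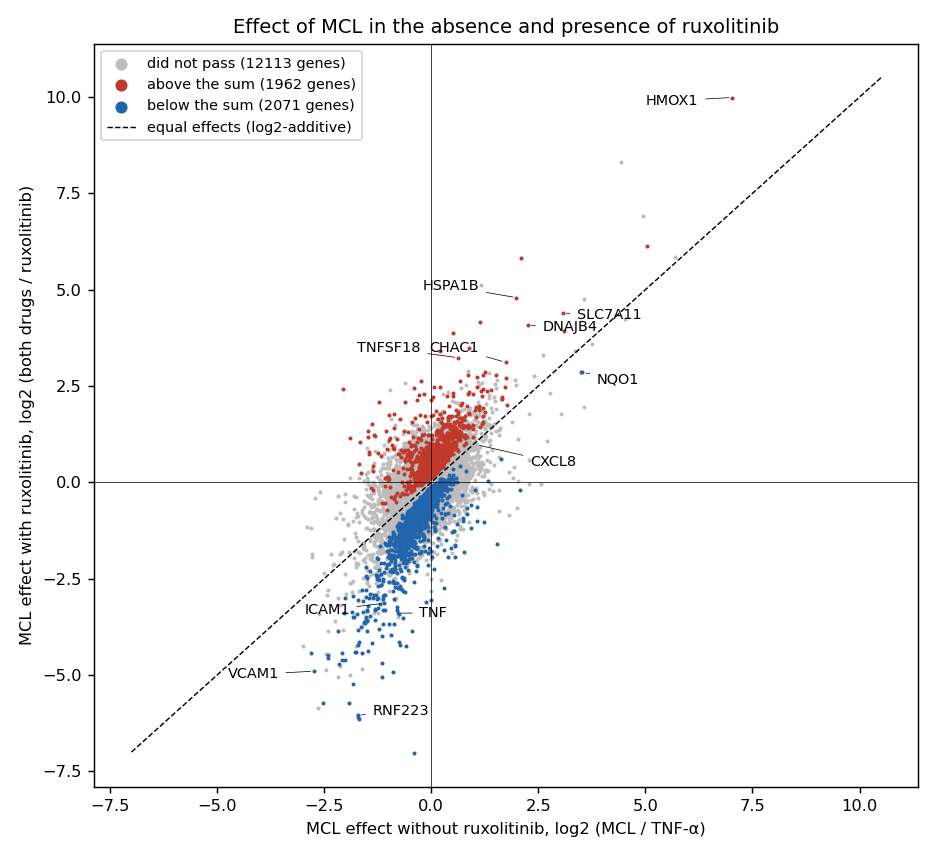
Each point is 1 of 16146 genes, placed by its log2 effect of MCL without ruxolitinib (x axis) and with ruxolitinib (y axis); the dashed line marks equal effects, red and blue mark the 1962 genes above and 2071 genes below the sum. HMOX1 stands at the upper right with 7.03 and 9.99, RNF223 at the bottom with -1.71 and -6.04, and CXCL8 beside the line with 1.04 and 0.98.

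Several stress-response genes that MCL raised by itself rose further when ruxolitinib was added. HMOX1, haem oxygenase 1, which degrades haem and is a classical NRF2 target (chromosome 22, 35380361 to 35394214 in hg38), stood at 0.526, 0.30 and 0.621 CPM in the 3 TNF-α libraries. It was at 67.6, 58.4 and 65 CPM with MCL, at 0.789, 0.623 and 0.175 CPM with ruxolitinib and at 529, 569 and 519.7 CPM with both. Ruxolitinib libraries overlapped those with TNF-α alone, MCL libraries were far above them, and all combination libraries were higher still. The mean with both drugs was 7.72 times the 69.8 CPM expected under additivity, and the departure was 2.96 ± 0.54 (SE, adjusted p = 0.000127). The groups without MCL held only 3 to 13 reads of the gene per library.

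Of 34 tested NRF2 targets 11 were above the sum and 5 below (47.1%, against 25% of all tested genes), with a median departure of 0.08. SLC7A11, the cystine transporter subunit that feeds glutathione synthesis, was at 11.4, 12.4 and 12.7 CPM with TNF-α and 101, 105 and 101 CPM with MCL. It was at 13.6, 12.3 and 12.2 CPM with ruxolitinib and 263, 263 and 274 CPM with both drugs, again with all combination libraries the highest. Its departure was 1.32 ± 0.09 (SE, adjusted p = 1.42e-18). Among genes named after their values were seen, GCLM, a glutathione synthesis subunit, departed by 0.82 ± 0.11 and OSGIN1 by 1.11 ± 0.15. The ferritin genes FTL and FTH1 departed by 0.34 ± 0.04 and 0.33 ± 0.07, and TXNRD1, thioredoxin reductase, by 0.24 ± 0.05. All of these passed and lay above the sum. NQO1, a quinone reductase and textbook NRF2 target, went the other way on the log2 scale. NQO1 held 23.1, 23.5 and 21.5 CPM with MCL and 22.9, 23.7 and 25.2 CPM with both, overlapping levels. It held 1.77, 2.34 and 1.74 CPM with TNF-α and 2.67, 4.17 and 3.1 CPM with ruxolitinib, from 27 to 67 reads per library. On CPM NQO1 was close to additive, with a mean of 23.95 with both drugs against 24.07 expected from the sum of single-drug differences. Its departure of -0.68 ± 0.22 (SE, adjusted p = 0.0161) did not pass when replicate 1 or 3 of TNF-α was left out (adjusted p = 0.0543 and 0.0601), or replicate 2 of ruxolitinib (0.133). Over the NRF2 list the median log2 effect of MCL was 0.93 without ruxolitinib and 1.03 with it.

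Heat shock genes departed mainly upwards. Of 30 tested heat shock genes 18 were above the sum and 1 below (63.3%, against 25% of all tested genes, median 0.29). HSPA1B, an inducible HSP70 chaperone, was at 21.8, 22.8 and 24.2 CPM with TNF-α, 90.5, 89.8 and 93.1 CPM with MCL, 18, 16.9 and 17.7 CPM with ruxolitinib and 487, 504 and 470.2 CPM with both. The 4 groups did not overlap: ruxolitinib gave the lowest libraries and the combination the highest, 6.99 times the expected level. The departure was 2.81 ± 0.08 (SE, adjusted p = 3.11e-38). Its near-identical neighbour HSPA1A departed by 3.72 ± 0.63, and how the counting divided reads between the copies is not given in the sources used here. DNAJB1, which overlaps TECR on the opposite strand, encodes an HSP40 co-chaperone that works with HSP70. It was at 109, 107 and 104 CPM with TNF-α, 216, 228 and 222 CPM with MCL, 111, 116 and 109.6 CPM with ruxolitinib and 731, 752 and 743 CPM with both, a departure of 1.67 ± 0.05 (SE, adjusted p = 8.59e-36). The log2 change of DNAJB1 with ruxolitinib alone was 0.07 ± 0.04, which did not pass, and added to MCL it raised the gene by 1.74.

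HSPA6, a strictly inducible HSP70, moved in opposite directions. It fell from 3.62, 3.9 and 3.23 CPM with TNF-α to 2.24, 2.81 and 1.98 CPM with MCL and 2.06, 1.62 and 1.75 CPM with ruxolitinib, and reached 7.88, 7.81 and 7.35 CPM with both. Each drug lowered it alone and all 3 combination libraries were above every other library, a departure of 2.69 ± 0.30 (SE, adjusted p = 6.03e-11). The co-chaperones DNAJB4 and HSPH1 departed by 1.82 ± 0.10 and 1.31 ± 0.05. BAG3 (a nucleotide exchange factor of HSP70), HSP90AA1 and HSPA8, named after their values were seen, departed by 1.61 ± 0.10, 0.95 ± 0.04 and 0.70 ± 0.04.

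To show sequence beside these values, the windows from 250 bases before to 50 after the RefSeq start of each gene (GRCh38.p14) were searched on both strands, each motif on its own. RefSeq windows were found for 124 of the 161 genes named. Inverted repeats of the heat shock unit that HSF1 binds were written as GAANNTTC, and 6.77% of all 35116 windows held that motif. HSPA6 is shown because its window held matches, in capitals, that begin 180 and 69 bases before the start, at chr1:161524320-161524518 (plus strand).
HSPA6: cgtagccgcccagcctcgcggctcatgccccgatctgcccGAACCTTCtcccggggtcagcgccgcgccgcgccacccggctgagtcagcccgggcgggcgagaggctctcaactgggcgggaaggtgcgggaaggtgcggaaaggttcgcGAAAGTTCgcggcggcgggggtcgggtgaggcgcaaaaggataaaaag
A match is a description of letters and no evidence of binding. Of the genes with a window, 10 of 85 above the sum by more than 1 held it (11.8%), 13 of 170 below by more than 1 (7.65%) and 645 of 9862 tested protein-coding genes (6.54%).

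Genes of the ATF4 programme, which cells switch on when translation is restrained by phosphorylated eIF2α, were above the sum in 27 of 34 tested members and below in 1 (median 0.47). Their share called, 82.4%, stands beside 25% of all tested genes. CHAC1, which degrades glutathione, was at 14.9, 14.4 and 15.3 CPM with TNF-α, 47.8, 50.6 and 50.2 CPM with MCL, 15.7, 18.8 and 14.6 CPM with ruxolitinib and 143, 148 and 134 CPM with both. TNF-α and ruxolitinib libraries overlapped, and the combination stood above MCL alone in all 3 libraries. The departure was 1.38 ± 0.10 (SE, adjusted p = 1.71e-17). SESN2, a stress sensor that restrains mTORC1, was at 27.4, 32.6 and 30.7 CPM with TNF-α, 42.6, 43.3 and 42.8 CPM with MCL, 26.9, 25.4 and 25.6 CPM with ruxolitinib and 117, 133 and 121 CPM with both. Ruxolitinib alone lowered SESN2 by a small step and the combination raised it, a departure of 1.75 ± 0.09 (SE, adjusted p = 1.53e-24).

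The stress factors ATF3 and DDIT3 (CHOP) followed the same order. ATF3 departed by 1.59 ± 0.16, with means of 5.87, 13.6, 5.58 and 38.8 CPM with TNF-α, MCL, ruxolitinib and both. DDIT3, which overlaps MARS on the opposite strand, departed by 1.48 ± 0.17, from means of 6.64, 12.2, 6.42 and 32.8 CPM in the same order. PCK2 and the amino acid transporter SLC38A2 departed by 1.0 ± 0.06 and 0.68 ± 0.05. Of genes named after their values were seen, DDIT4, an inhibitor of mTORC1, departed by 1.41 ± 0.13, TRIB3 by 0.60 ± 0.09, and the transcript of ATF4 itself by 0.23 ± 0.05. Of the endoplasmic reticulum's unfolded protein response, 9 of 23 tested genes were above the sum and 1 below (43.5%, against 25% of all tested genes, median 0.14). HERPUD1, a component of endoplasmic reticulum associated degradation, departed by 1.01 ± 0.08, its regulator XBP1 by 0.49 ± 0.05 and the chaperone HSPA5 by 0.41 ± 0.05.

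The motif TGATGNAA, a form of the composite site for C/EBP and ATF factors, was in 3.62% of all windows. Of the genes with a window, 10 of 85 (11.8%) above the sum by more than 1 held it, 5 of 170 (2.94%) below by more than 1, and 270 of 9862 tested protein-coding genes (2.74%). CHAC1 is shown, with the match in capitals on the opposite strand, 209 bases before the RefSeq start, at chr15:40953222-40953309 (plus strand). Of the 7 genes whose windows are shown, VCAM1 and HSPA6 have the same start in RefSeq and in the GENCODE 29 genes used for counting. The RefSeq start lies inside the counted gene by 509 bases in CHAC1, 285 in ICAM1, 118 in CXCL3, 77 in IFIT1 and 63 in CXCL8.
CHAC1: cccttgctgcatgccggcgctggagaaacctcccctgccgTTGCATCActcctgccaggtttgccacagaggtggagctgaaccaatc

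**Figure D2:**
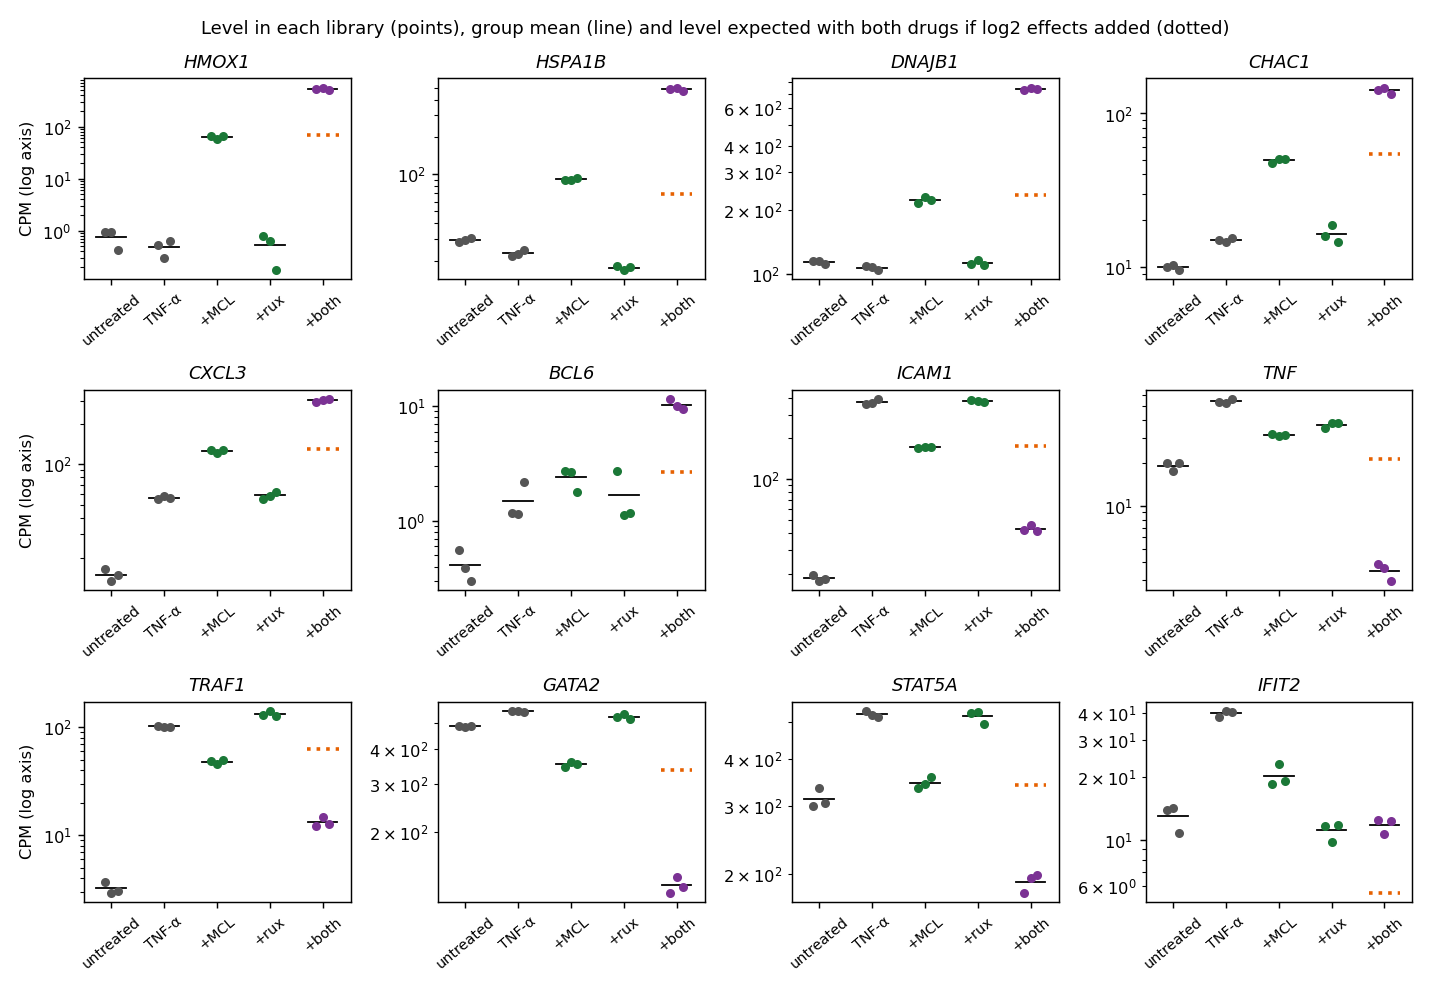
CPM on a log axis, whose range differs between panels, in each of the 15 libraries (points) with group means (lines) for 12 genes; the dotted orange line marks the level expected with both drugs if log2 effects added. Combination libraries lie above the dotted line for HMOX1, HSPA1B, DNAJB1, CHAC1, CXCL3, BCL6 and IFIT2 and below it for ICAM1, TNF, TRAF1, GATA2 and STAT5A.

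NF-kB targets went the other way: 32 of 43 tested members were below the sum and 7 above (90.7%, against 25% of all tested genes). Their median departure was -0.49. The median effect of MCL on this list was -0.35 without ruxolitinib and -0.84 with it, and that of ruxolitinib was 0.01 without MCL and -0.48 with it. ICAM1, the adhesion molecule that leukocytes bind (chromosome 19, 10270835 to 10286615), was at 19.6, 17.6 and 18.2 CPM in untreated cells and 363, 366 and 391 CPM with TNF-α. It was at 170.0, 174 and 174 CPM with MCL, 384, 379.9 and 373 CPM with ruxolitinib and 42.1, 45.6 and 41.3 CPM with both. Ruxolitinib libraries overlapped those of TNF-α, MCL libraries were lower, and the combination was lower than all of these and remained above untreated cells. Its level with both drugs was 0.245 of the expected 175 CPM, a departure of -2.03 ± 0.06 (SE, adjusted p = 4.89e-38).

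TRAF1, a signalling adaptor of TNF receptors, was at 103, 101 and 101 CPM with TNF-α, 49.1, 45.3 and 49.3 CPM with MCL, 129.9, 142 and 126 CPM with ruxolitinib and 12.1, 14.8 and 12.7 CPM with both. Ruxolitinib alone raised TRAF1, and added to MCL it lowered it, with no overlap between the groups. The departure was -2.24 ± 0.09 (SE, adjusted p = 1.59e-30). VCAM1, another adhesion molecule, showed the same reversal of the ruxolitinib effect, 0.44 without MCL and -1.73 with it. Its libraries held 13.9, 14.1 and 15.8 CPM with TNF-α, 18.8, 20.9 and 19.6 CPM with ruxolitinib, 2.71, 2.15 and 1.67 CPM with MCL and 0.637, 0.491 and 0.835 CPM with both, a departure of -2.17 ± 0.29 (SE, adjusted p = 2.02e-08). TNFAIP2, a TNF-α induced gene, was at 1931, 1942 and 1964 CPM with TNF-α, 805, 782 and 826 CPM with MCL, 1883, 1859 and 1955 CPM with ruxolitinib and 233, 237 and 227 CPM with both, overlapping the 232, 235 and 239 CPM of untreated cells. Its departure was -1.76 ± 0.04 (SE, adjusted p = 2.16e-40).

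The inhibitors and subunits of NF-kB departed by less. NFKBIA (IκBα), which holds NF-kB in the cytoplasm, departed by -0.66 ± 0.05, and TNFAIP3 (A20), a ubiquitin editor that ends the signal, by -0.57 ± 0.05. BCL3, a nuclear IκB protein, departed by -1.59 ± 0.09. Of the subunit genes, named after their values were seen, NFKB1, NFKB2 and RELB departed by -0.51 ± 0.05, -0.38 ± 0.05 and -0.41 ± 0.06. REL departed upwards by 0.40 ± 0.12, a call lost without ruxolitinib replicate 2 (adjusted p = 0.0545). The anti-apoptotic targets BIRC3, BCL2A1 and IER3, named after their values were seen, departed by -0.34 ± 0.06, -1.11 ± 0.20 and -2.05 ± 0.41. The combination libraries held only 7, 6 and 4 reads of IER3. On CPM IER3 was close to additive, at 0.319 with both drugs against 0.326 expected from the sum of single-drug differences.

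The 7 NF-kB targets above the sum included chemokine genes that MCL raised. CXCL3, a neutrophil attractant, was at 55.4, 57.5 and 56.3 CPM with TNF-α, 128, 121 and 129 CPM with MCL, 55.4, 58 and 62 CPM with ruxolitinib and 294, 301 and 308 CPM with both. The combination libraries were the highest, a departure of 1.20 ± 0.07 (SE, adjusted p = 1.9e-23). CXCL8, its relative, was at 62, 68.6 and 64 CPM with TNF-α, 135, 136 and 130.3 CPM with MCL, 63.1, 67.1 and 61.2 CPM with ruxolitinib and 129, 126 and 122 CPM with both. MCL libraries lay above those without MCL and slightly above those with both drugs, and the departure of -0.06 ± 0.08 (SE, adjusted p = 0.604) did not pass. Its 95% interval ran from -0.23 to 0.11. The other genes above the sum, named after their values were seen, were CXCL2 (0.39 ± 0.08), PTGS2, the inducible cyclooxygenase (1.38 ± 0.16), NFKBIZ (0.87 ± 0.09), CYLD (0.27 ± 0.07), CFLAR (0.32 ± 0.07) and REL. For PTGS2 and NFKBIZ MCL lowered the transcript without ruxolitinib (-0.32 and -0.64) and raised it with ruxolitinib (1.06 and 0.23).

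The promoter windows of 4 of these genes are shown because genes on both sides of the sum held the same letters, GGNNNTTCC, a loosely written kB motif, in capitals. Before the RefSeq start the match lay 186 bases away in ICAM1, at chr19:10270894-10270982 (plus strand), and 62 in VCAM1, at chr1:100719640-100719728 (plus strand), which has another match 219 bases away that is not printed. In CXCL3 they lay 78 and 53 bases away, at chr4:74038694-74038807 (minus strand), and in CXCL8 91, at chr4:73740438-73740526 (plus strand).
ICAM1: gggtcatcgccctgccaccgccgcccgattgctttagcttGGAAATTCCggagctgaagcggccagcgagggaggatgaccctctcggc
VCAM1: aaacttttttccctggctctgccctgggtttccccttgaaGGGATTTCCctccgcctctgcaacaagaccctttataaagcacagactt
CXCL3: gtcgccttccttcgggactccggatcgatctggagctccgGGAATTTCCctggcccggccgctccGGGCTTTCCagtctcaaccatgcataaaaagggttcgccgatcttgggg
CXCL8: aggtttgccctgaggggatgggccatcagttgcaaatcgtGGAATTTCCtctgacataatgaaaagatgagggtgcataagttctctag
ICAM1 and VCAM1 lay below the sum, CXCL3 above it, and the departure of CXCL8 did not pass. The motif was common: 20.1% of all windows held it, 2887 of 9862 tested protein-coding genes (29.3%), 60 of 170 genes below the sum by more than 1 (35.3%) and 18 of 85 above it by more than 1 (21.2%).

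Cytokines and receptors held several of the largest departures. Of 28 tested cytokine and chemokine ligands 14 were below the sum and 4 above (64.3%, against 25% of all tested genes, median -0.46). TNF itself was at 53.4, 52.7 and 55.8 CPM with TNF-α, 31.8, 30.9 and 31.3 CPM with MCL, 35, 37.7 and 37.8 CPM with ruxolitinib and 3.88, 3.66 and 2.95 CPM with both, below the 19.9, 17.6 and 19.8 CPM of untreated cells. Each drug lowered it alone, and with both it fell to 0.163 of the expected level, a departure of -2.61 ± 0.12 (SE, adjusted p = 2.71e-26). TNFRSF4 (OX40), a costimulatory receptor of the TNF receptor family, was at 221, 225 and 233 CPM with TNF-α, 99.3, 101 and 109 CPM with MCL, 249, 279 and 247 CPM with ruxolitinib and 20.2, 22.1 and 18.5 CPM with both. The combination libraries lay lowest of the groups, below untreated cells as well (30.1, 26.6 and 27.8 CPM), and the departure was -2.54 ± 0.07 (SE, adjusted p = 2.79e-30).

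IL18R1, a receptor chain for IL-18, departed by -2.61 ± 0.11, from means of 109.5, 31.9, 90.0 and 4.29 CPM with TNF-α, MCL, ruxolitinib and both. It overlaps IL1RL1 on the same strand. EBI3, a subunit of IL-27 and IL-35, departed by -2.04 ± 0.08. CSF1, the macrophage growth factor, named after its values were seen, departed by -3.02 ± 0.63. The combination libraries held 0, 2 and 4 reads of CSF1 and no library more than 39, so the size of that value is uncertain: it was -3.93 without combination replicate 3 and -2.49 without combination replicate 1. LTB, lymphotoxin β, departed by -1.26 ± 0.09 on the log2 scale but took the opposite sign on CPM.

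A pair of TNF superfamily ligands went the other way. TNFSF18, the ligand of GITR, was at 4.47, 4.32 and 3.17 CPM with TNF-α, 6.72, 6.53 and 5.25 CPM with MCL, 2.79, 3.74 and 3.45 CPM with ruxolitinib and 28.9, 32.5 and 32.6 CPM with both. The combination libraries were far above the others, 6.09 times the expected level, a departure of 2.60 ± 0.23 (SE, adjusted p = 1.05e-14). TNFSF4 (OX40 ligand), named after its values were seen, lies on the same chromosome and departed by 1.65 ± 0.18, with a mean of 20.7 ± 1.38 CPM with both drugs against 8.49 ± 0.954 with TNF-α (SD, n = 3 each). The receptor gene TNFRSF4 and its ligand gene TNFSF4 thus departed in opposite directions.

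**Figure D3:**
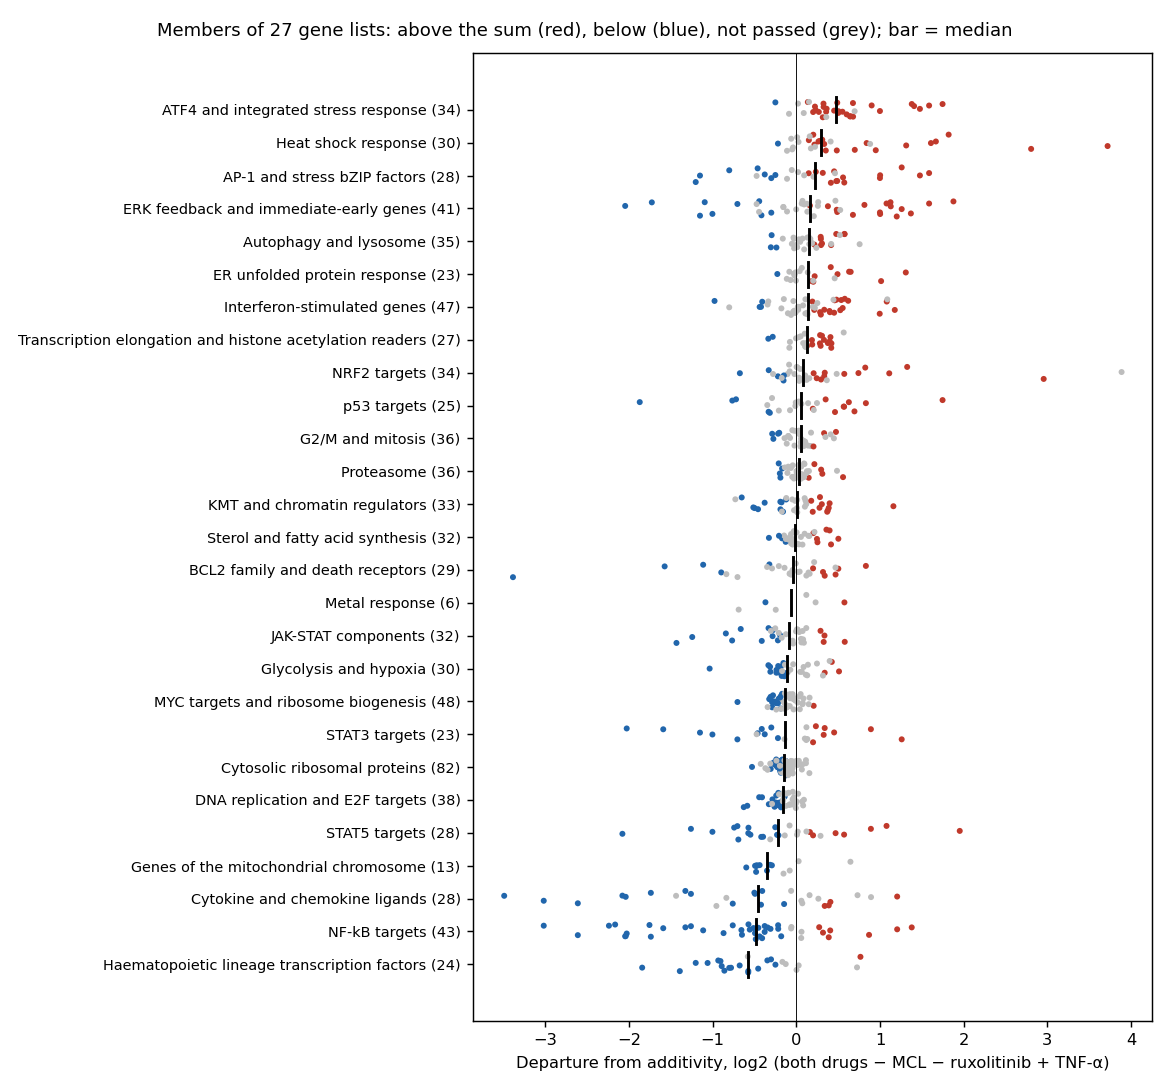
Departure from additivity on the log2 scale (x axis) of every tested member (points) of 27 gene lists, with the number tested in brackets and the list median as a bar; red members passed above the sum, blue below, grey did not pass. Medians run from 0.47 for the ATF4 list to -0.58 for the haematopoietic lineage factors, and most lists hold members on both sides.

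JAK and STAT genes departed unevenly. Of 32 tested components of the pathway 11 were below the sum and 4 above (46.9%, against 25% of all tested genes, median -0.09). The kinases that ruxolitinib inhibits did not pass, with 0.00 ± 0.05 for JAK1 (adjusted p = 0.965, 95% interval -0.11 to 0.10) and -0.04 ± 0.09 for JAK2 (adjusted p = 0.808, 95% interval -0.24 to 0.16). STAT5A, a STAT factor activated by JAK2, was at 299.8, 335 and 307 CPM in untreated cells and 534, 521 and 515 CPM with TNF-α. It was at 335, 344 and 359 CPM with MCL, 525, 531 and 494 CPM with ruxolitinib and 178, 195 and 199 CPM with both. Ruxolitinib libraries overlapped those of TNF-α, MCL libraries were lower, and the combination lay below untreated cells, a departure of -0.84 ± 0.06 (SE, adjusted p = 7.02e-17).

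Its paralogue STAT5B departed by less, -0.28 ± 0.06 (SE, adjusted p = 0.000383), with 119, 123 and 121 CPM with TNF-α, 83.9, 81.9 and 84.3 CPM with MCL, 114, 110.5 and 111 CPM with ruxolitinib and 66.5, 64.4 and 59.5 CPM with both. STAT3 departed by 0.12 ± 0.05 (SE, adjusted p = 0.0741), which did not pass, and passed with library totals (0.138, adjusted p = 0.0288). The receptor chains IFNGR2 and IL10RA departed by -1.43 ± 0.11 and -1.25 ± 0.05. Of genes named after their values were seen, CSF2RB, the β chain that several myeloid cytokine receptors share, departed by -0.67 ± 0.06 and PTPN6 (SHP-1), a phosphatase that dampens JAK signalling, by -0.77 ± 0.06. Neither drug alone changed PTPN6 past the threshold (log2 changes -0.01 with MCL and -0.01 with ruxolitinib), whereas both together lowered it by 0.79.

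Of 28 tested STAT5 targets 14 were below the sum and 7 above (75%, median -0.22). Of 23 STAT3 targets 10 were below and 7 above (73.9%, median -0.14). Both shares stand beside 25% of all tested genes. CISH, a feedback inhibitor and direct STAT5 target, was at 24, 20.8 and 23.8 CPM with TNF-α, 16, 22.4 and 18.7 CPM with MCL, 13.7, 13.3 and 14.4 CPM with ruxolitinib and 7.13, 9.5 and 9.35 CPM with both. Ruxolitinib libraries lay below those with MCL and combination libraries were the lowest. The departure of -0.40 ± 0.15 (SE, adjusted p = 0.0398) was lost with DESeq2 (adjusted p = 0.0511) and without any of 5 of the 12 libraries (TNF-α 2, MCL 2, ruxolitinib 1, ruxolitinib 3 or combination 1, adjusted p from 0.0557 to 0.193). CCND1, cyclin D1, was at 172, 178 and 175 CPM with TNF-α, 104, 108 and 104 CPM with MCL, 75.7, 75.5 and 76.1 CPM with ruxolitinib and 23.4, 23.2 and 21.7 CPM with both, a fall with each drug and a departure of -1.0 ± 0.07 (SE, adjusted p = 1.16e-19). On CPM its departure had the opposite sign.

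PIM1, a survival kinase, departed upwards by 0.89 ± 0.08: ruxolitinib lowered it without MCL (-0.39) and raised it with MCL (0.50). Its relatives PIM2 and PIM3, named after their values were seen, departed downwards by -0.74 ± 0.10 and -0.69 ± 0.06. BCL6, a transcriptional repressor, was at 1.18, 1.14 and 2.17 CPM with TNF-α, 2.71, 2.68 and 1.79 CPM with MCL, 2.73, 1.12 and 1.17 CPM with ruxolitinib and 11.5, 9.99 and 9.52 CPM with both. The 3 groups without the combination overlapped, and the departure was 1.95 ± 0.37 (SE, adjusted p = 5.37e-05). Libraries of those groups held only 18 to 46 reads of BCL6. Leaving out 1 library gave departures from 1.58 to 2.49. SOCS3 was low and scattered, and its departure of 0.12 ± 0.37 (SE, adjusted p = 0.858) did not pass.

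Interferon-stimulated genes lay above the sum more often than below it although their levels fell with both drugs. Of 47 tested members 18 were above and 4 below (46.8%, against 25% of all tested genes). Their median departure was 0.13, while the median effect of the combination against TNF-α was -1.30. The median effect of ruxolitinib was -0.79 both without and with MCL, and that of MCL was -0.53 without and -0.25 with ruxolitinib. IFIT2, an RNA-binding antiviral protein, was at 38.6, 41.2 and 40.6 CPM with TNF-α, 18.5, 23.1 and 19.1 CPM with MCL, 11.7, 9.78 and 11.8 CPM with ruxolitinib and 12.5, 10.7 and 12.2 CPM with both. Ruxolitinib and combination libraries overlapped, and the departure was 1.08 ± 0.14 (SE, adjusted p = 8e-09). Untreated cells held 13.8, 14.2 and 10.7 CPM, and the level expected with both drugs was 5.6 CPM. Whether a floor near the untreated level shaped the departure was not tested.

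IFIT1 was at 94.9, 98.1 and 92.5 CPM with TNF-α, 40.5, 43.6 and 43.9 CPM with MCL, 13.5, 13.1 and 10.8 CPM with ruxolitinib and 8.75, 9.28 and 7.63 CPM with both. MCL lowered it in both settings, by less with ruxolitinib (-0.54) than without (-1.16), a departure of 0.62 ± 0.12 (SE, adjusted p = 2.18e-05). IFIT1 and IFIT2 overlap LIPA on the opposite strand. STAT2, part of the ISGF3 complex that drives these genes, departed by 0.58 ± 0.07, and MX2 and IFI44L, named after their values were seen, by 1.18 ± 0.19 and 0.99 ± 0.14. CXCL10 and GBP5, the latter named after its values were seen, were among the 4 below the sum, with -0.41 ± 0.06 and -0.98 ± 0.15; GBP5 took the opposite sign on CPM. The window of IFIT1 is shown for its matches to GAAANNGAA, the core of the interferon-stimulated response element, in capitals on the opposite strand, beginning 115 and 102 bases before the start, at chr10:89392468-89392569 (plus strand). The motif was in 8.11% of all windows, 897 of 9862 tested protein-coding genes (9.1%), 9 of 85 above the sum by more than 1 (10.6%) and 13 of 170 below (7.65%).
IFIT1: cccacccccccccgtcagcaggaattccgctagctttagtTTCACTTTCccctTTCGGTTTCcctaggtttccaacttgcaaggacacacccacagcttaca

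The ERK phosphatase genes DUSP6 and DUSP5 were lowered by ruxolitinib alone and overlapped the level of MCL alone when both drugs were present. Of 41 tested members of the list of ERK feedback and immediate-early genes 16 were above the sum and 9 below (median 0.16). The called members made up 61%, against 25% of all tested genes. DUSP6, the phosphatase that switches off ERK, named after its values were seen, was at 75, 72 and 73.8 CPM with TNF-α, 64.5, 63.4 and 59.4 CPM with MCL, 35.6, 31.5 and 34.9 CPM with ruxolitinib and 66.4, 60.4 and 62 CPM with both. Combination libraries overlapped those with MCL and lay well above those with ruxolitinib, a departure of 1.12 ± 0.08 (SE, adjusted p = 5.71e-19). DUSP5, another ERK phosphatase, was at 108, 104 and 104 CPM with TNF-α, 98.5, 102 and 102 CPM with MCL, 47.8, 50.1 and 49.6 CPM with ruxolitinib and 100.2, 96.7 and 101 CPM with both. The pattern was the same, with a departure of 1.08 ± 0.06 (SE, adjusted p = 2.67e-22).

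ETV5 and ETV4, ERK-responsive transcription factors, and EGR1, an immediate-early factor, all named after their values were seen, departed by 1.20 ± 0.11, 0.48 ± 0.12 and 1.37 ± 0.33. Members below the sum on the same list included JUNB (-1.15 ± 0.06) and, named after their values were seen, DUSP2 (-1.73 ± 0.13) and IER3. Of 28 AP-1 and stress bZIP factors 14 were above the sum and 7 below (75%, against 25% of all tested genes, median 0.22). Among them were MAFG (0.57 ± 0.06) above and NFE2 (-1.20 ± 0.11) below.

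**Figure D4:**
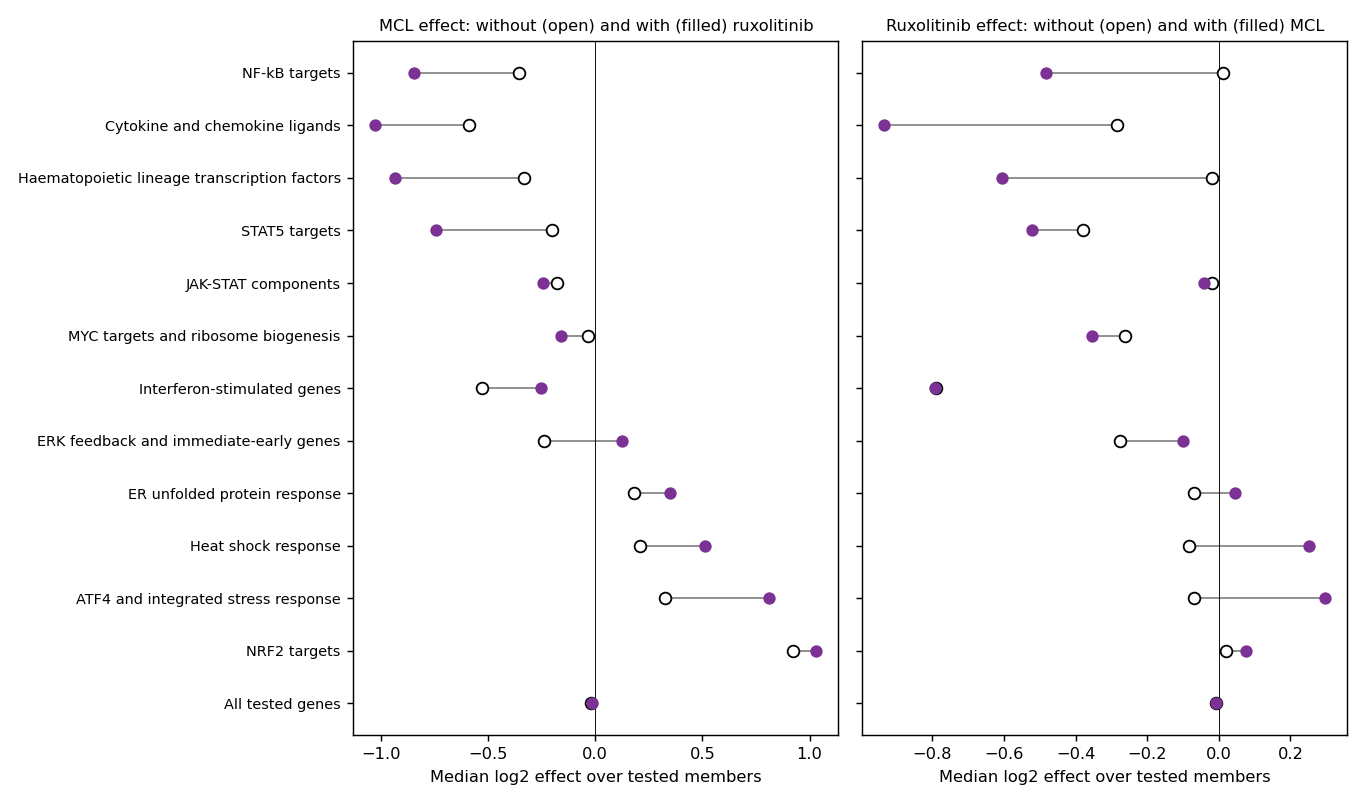
Median log2 effect over tested members (x axis) of MCL without and with ruxolitinib (left, open and filled) and of ruxolitinib without and with MCL (right) for 12 lists and all tested genes. The NF-kB median of ruxolitinib moves from 0.01 to -0.48 and the ATF4 median from -0.07 to 0.30, whereas the interferon median stays at -0.79.

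Most tested transcription factors of blood cell lineages departed downwards. Of 24 tested members 17 were below the sum and 1, LMO2, above (75%, against 25% of all tested genes, median -0.58). GATA2, a factor of blood stem and progenitor cells (chromosome 3, 128479427 to 128493185), was at 486, 482 and 486 CPM in untreated cells and 553, 553 and 547 CPM with TNF-α. It was at 344, 359 and 354 CPM with MCL, 522, 537 and 517 CPM with ruxolitinib and 120.2, 137 and 127 CPM with both. MCL lowered GATA2 alone, ruxolitinib did not pass (-0.07 ± 0.03), and the combination libraries were the lowest, a departure of -1.39 ± 0.05 (SE, adjusted p = 1.79e-32). SPI1 (PU.1), a myeloid factor, was at 218, 221 and 215 CPM with TNF-α, 142, 131 and 143 CPM with MCL, 229, 239 and 228 CPM with ruxolitinib and 77.3, 81.1 and 72.7 CPM with both. The departure was -0.93 ± 0.06 (SE, adjusted p = 4.36e-21). LYL1 departed by -1.06 ± 0.06, and of genes named after their values were seen MYB departed by -0.86 ± 0.06, GATA1 by -0.91 ± 0.15, CEBPA by -0.80 ± 0.16 and TAL1 by -0.46 ± 0.05. LMO2, a bridging protein of the same complexes, departed by 0.77 ± 0.12. The 12 blood and myeloid markers, which include 7 of these factors, were summed on CPM scaled by library totals, without TMM. Their summed level was 3140 to 3190 CPM with TNF-α, 2620 to 2660 with MCL, 3100 to 3150 with ruxolitinib and 2030 to 2060 with both. That of the 5 megakaryocyte markers was 976 to 1000, 862 to 891, 935 to 949 and 728 to 764 CPM, and their part in the result was not tested.

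Some growth genes departed downwards as well. MYC, the growth regulator, was at 329.9, 323 and 327 CPM with TNF-α, 306, 329 and 306 CPM with MCL, 219.6, 230.0 and 229 CPM with ruxolitinib and 126, 136 and 137 CPM with both. TNF-α and MCL libraries overlapped, ruxolitinib lowered MYC, and the combination was the lowest, a departure of -0.70 ± 0.05 (SE, adjusted p = 1.05e-17). Of 48 tested MYC targets and ribosome biogenesis genes 17 were below the sum and 1 above (37.5%, against 25% of all tested genes, median -0.13). RRS1 and NOP56, factors of ribosome assembly, departed by -0.70 ± 0.08 and -0.29 ± 0.05. None of 38 DNA replication and E2F genes was above the sum by edgeR's test and 16 were below (42.1%, against 25%, median -0.16). UHRF1, which maintains DNA methylation at replication, departed by -0.59 ± 0.06 and PCNA, the sliding clamp, by -0.41 ± 0.05. Of 36 G2/M genes 3 were above and 4 below, a share of 19.4% beside the 25% of all tested genes and 29.9% of protein-coding genes. Of 30 glycolysis and hypoxia genes 13 were below and 3 above (53.3%, against 25%). PFKP departed by -0.31 ± 0.05 and P4HA1 by 0.51 ± 0.07.

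Cell death genes were split. Of 29 tested genes of the BCL2 family and death receptors 6 were above the sum and 5 below (median -0.05). That share of 37.9% was not far from the 25% of all tested genes or the 29.9% of protein-coding genes. BMF, a pro-apoptotic BH3-only protein, was at 45.4, 41.8 and 42.2 CPM with TNF-α, 33.3, 36.9 and 37.6 CPM with MCL, 76.7, 83.1 and 76.8 CPM with ruxolitinib and 22.1, 23.3 and 20.8 CPM with both. Ruxolitinib raised BMF without MCL and lowered it with MCL, with no overlap of groups, a departure of -1.57 ± 0.09 (SE, adjusted p = 1.39e-21). PMAIP1 (NOXA), another BH3-only protein, was at 45.6, 45.9 and 44.7 CPM with TNF-α, 104, 95.4 and 97.2 CPM with MCL, 50.7, 49.2 and 47.5 CPM with ruxolitinib and 187, 193 and 190.2 CPM with both, a departure of 0.83 ± 0.07 (SE, adjusted p = 1.67e-15). BCL2L1, which encodes anti-apoptotic BCL-XL, was at 96.1, 96.6 and 104 CPM with TNF-α, 59.6, 64.2 and 62.9 CPM with MCL, 66, 67 and 61.8 CPM with ruxolitinib and 39.3, 36.5 and 39.9 CPM with both. Each drug lowered it and the combination was the lowest. The departure of -0.08 ± 0.07 (SE, adjusted p = 0.461) did not pass, with a 95% interval from -0.24 to 0.08. Of 25 p53 targets 9 were above and 5 below (56%), CDKN1A (p21) among the first with 0.57 ± 0.05.

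Several genes at the extremes belonged to none of the lists. RNF223, a ring-finger gene, had the lowest value: 4.14, 3.6 and 4.91 CPM with TNF-α, 0.944, 1.18 and 1.73 CPM with MCL, 7.53, 7.97 and 8.13 CPM with ruxolitinib and 0.0579, 0.109 and 0.167 CPM with both, the last from 1 to 3 reads per library. The departure was -4.33 ± 0.52 (SE, adjusted p = 6.26e-10). TMCC2, ANO9, SPIB, ACHE, IGDCC3 and WNT10A departed by -2.60, -2.55, -2.46, -2.35, -2.26 and -2.70. At the upper end HLX, a homeobox gene, departed by 1.75 ± 0.36 and MMRN2 by 1.78 ± 0.22. HLX held only 19 to 43 reads per library with TNF-α, MCL or ruxolitinib. Leaving out 1 library gave it departures from 1.565 to 2.02. MMRN2 overlaps SNCG on the opposite strand and was lowered by each drug alone. EIF3CL had the highest value, 4.48 ± 1.22 (SE, adjusted p = 0.0211). Its size rested largely on TNF-α replicate 3, at 61.7 CPM against 6.25 and 6.67 CPM in replicates 1 and 2. Without that library the departure was 2.53 and still passed (adjusted p = 0.0145). The call was lost without MCL replicate 3 (0.051), ruxolitinib replicate 2 (0.0506) or combination replicate 1 (0.0514). EIF3CL is a near-identical copy of EIF3C, and how reads were divided between them is not given in the sources used here.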

How the data were processed

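The authors deposited unnormalized counts of reads for 58735 genes in 15 libraries. Without saying what each was for, the submitters' processing notes name DESeq2 1.16.1, featureCounts 1.5.0-p3, HISAT2 2.0.5, and both mm10 and hg38. All 58735 genes had the start, end and symbol of GENCODE 29 on hg38. Neither strand use nor the handling of multiply matching reads is given in the sources used here, so overlapping genes cannot be separated: 45 of the 161 genes named overlap another tested gene.

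Counts were fitted with edgeR 4.0.16 in R 4.3.3: filterByExpr at a minimum count of 10, TMM scaling, 1 coefficient per group over 15 libraries with 10 residual degrees of freedom, and robust quasi-likelihood F-tests. P-values were Benjamini-Hochberg adjusted over 16146 genes, with a threshold of 0.05. The SE is the log2 value over the square root of F, and 95% intervals use the residual degrees of freedom. CPM are TMM-scaled. No test was run on a list. Expected levels multiply group mean ratios, while log2 departures come from the fit. The scripts were tested on simulated data.

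Named by rule were 110 genes: among passing protein-coding genes whose highest group averaged 5 CPM or more, the 12 highest and 12 lowest, up to 3 members of each of 28 lists with the smallest p, and a panel. A further 51 were chosen after their values were seen. Of these 161 genes, 2 are not reported here. Members and lists were chosen with earlier results of these data known. Alternatives were other scalings, filters and tests (DESeq2 1.42.0, limma 3.58.1), the 12 libraries alone, CPM, a replicate block and leaving out each library. Promoter windows are RefSeq's (GRCh38.p14).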

Additional observations from a re-analysis of the deposited data

How the results depend on the processing

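No gene called in the main fit was called in the opposite direction under any setting run. Genes above and below the sum numbered 1933 and 2120 with DESeq2 size factors, 2168 and 1889 with library totals, 1640 and 2054 without a filter, 1752 and 1966 with DESeq2's test, 1946 and 2050 with limma-trend and 1888 and 2159 from the 12 libraries alone. At a minimum count of 50, with fewer genes tested, 98 genes were above the sum by more than 1. Leaving out 1 library gave 1592 to 1940 genes above and 1825 to 2187 below, and 145 to 193 and 270 to 300 beyond 1. The MCL effect without ruxolitinib then gave 1424 to 2174 higher and 1986 to 2445 lower, with ruxolitinib 3662 to 4050 and 3793 to 4396. The ruxolitinib effect gave 623 to 934 and 1280 to 1688 without MCL, and 2719 to 3338 and 3147 to 3617 with it. The combination against TNF-α gave 3814 to 4533 and 4349 to 4759.

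The labels number replicates 1 to 3 in each group, and a fit with a replicate block gave 1994 genes above and 2118 below. Deviations of same-numbered pairs correlated at -0.097 to 0.128 (median 0.006), and those of other pairs between groups at -0.149 to 0.122 (median -0.008). In 6 of 12 libraries the best correlation was with their own number. With 3 libraries per group this check cannot show whether the numbers carry a pairing.

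On CPM the departures of CCND1 (16.5 CPM), GBP5 (3.98 CPM) and LTB (35.4 CPM) changed sign. Departures that never passed changed sign around 0: JAK1 was 0.016 with library totals, 0.003 at a minimum count of 50, 0.015 without MCL replicate 2 and 0.002 without ruxolitinib replicate 1; JAK2 was 0.021 without MCL replicate 2. Leaving out 1 library, JAK1 ran from -0.03 to 0.015, and SOCS3 from -0.115 to 0.325. SOCS3 was -0.009 without TNF-α replicate 3, -0.115 without MCL replicate 1, -0.039 without ruxolitinib replicate 1 and -0.057 without combination replicate 3. MT2A lost its call without ruxolitinib replicate 2 (-0.358, adjusted p = 0.0584 by edgeR), and STAT3 gained one at a minimum count of 50 (0.125, adjusted p = 0.0404). Where DESeq2 gave no adjusted p (CSF1) no value is given. The cause of these changes was not tested.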

Other observations

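Transcripts of the mitochondrial chromosome split by kind. Of 13 messenger RNAs 9 were below the sum and none above by edgeR's test (69.2%, against 25% of all tested genes, median -0.35). MT-ND1, a subunit of respiratory complex I, was at 2879, 2907 and 2721 CPM with TNF-α and 2355, 2616 and 2422 CPM with MCL. It was at 3077, 3071 and 3068 CPM with ruxolitinib and 1868, 1895 and 1988 CPM with both (departure -0.48 ± 0.05). Both ribosomal RNAs, named after their values were seen, lay above the sum, MT-RNR1 by 0.61 ± 0.08 and MT-RNR2 by 0.29 ± 0.05. The share of counts from the mitochondrial chromosome was 4.94 to 5.21% with TNF-α, 4.35 to 4.78% with MCL, 5.44 to 5.53% with ruxolitinib and 4.21 to 4.46% with both, and its part in these values was not tested.

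Cytosolic ribosomal protein genes departed by small amounts: 37 of 82 were below the sum and none above (34 and 1 with library totals), with a median of -0.14. These calls in the main fit made up 45.1% of the tested members, against 25% of all tested genes. RPL13A was raised by each drug alone (0.12 and 0.16) and lowered by MCL with ruxolitinib (-0.11). Genes of transcription elongation and histone acetylation readers were above the sum in 13 of 27 and below in 2 (55.6%, median 0.13). Among those above were EP300 (0.40 ± 0.06), AFF4 (0.42 ± 0.06) and MED13 (0.42 ± 0.05). Chromatin regulators divided 10 above and 10 below of 33 (60.6%). Below were DNMT3B at -0.52 ± 0.05, KDM2B at -0.65 ± 0.07 and TET3 at -0.46 ± 0.06. Autophagy and lysosome genes were above in 9 of 35 and below in 3 (34.3%), with ULK1 at 0.57 ± 0.08 and SQSTM1 at 0.29 ± 0.04. Of 407 ZNF zinc finger genes 64 were above and 23 below (median 0.11), 21.4% against 25% of all tested genes and 29.9% of protein-coding genes. Proteasome genes divided 5 and 4 of 36, a share of 25%, the same as that of all tested genes.

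By annotated class, 29.9% of 12455 protein-coding genes departed, against 6.85% of 1109 antisense genes and 9.25% of 735 lincRNAs. Median departures of these classes were 0, 0.07 and 0.04. The part of read depth in these shares was not tested, so they do not measure how strongly a class departed. ABCA1, a cholesterol exporter named after its values were seen, was raised by each drug (0.86 with MCL and 0.83 with ruxolitinib) and departed by 1.44 ± 0.27. Sterol synthesis genes divided 7 above and 4 below of 32 (34.4%, against 25% of all tested genes), with SQLE at -0.33 ± 0.05.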
